A study of Mus musculus with 8 samples.

Results

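The nuclear-encoded oxidative phosphorylation genes of the mouse liver were followed in 8 libraries of regenerating tissue. They were picked by symbol: rows whose name starts with Nduf, Uqcr, Atp5 or Cox and a digit, or is Sdha, Sdhb, Sdhc or Sdhd. Of 109 such rows among 19055, 10 carry -ps in their symbol, the mark of a pseudogene, and were dropped. Of the other 99 genes, 97 reached a value of 10 in 3 or more libraries and form the set described here. The 2 left out were Cox6a2 and Ndufa4l2, with at most 1.98 and 5.996 normalized reads in any library. The 97 members comprise 38 genes of complex I, 4 of complex II, 8 of complex III, 14 of complex IV, 17 of complex V and 16 assembly factors. Ndufa4 is named after complex I and was counted with complex IV, of which it is a subunit.

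Livers were taken 48 hours after a partial hepatectomy. The 3 controls are wild-type littermates of genotype URI(+/+)Hep. The 5 other livers are of genotype URI(+/D)Hep, with a hepatocyte deletion of URI made by a Cre recombinase that is driven from the serum albumin gene and activated by tamoxifen. In the genotype, D stands beside a wild-type allele. All mice were treated with tamoxifen for a week and, at 8 to 9 weeks of age, had the operation under the analgesic Buprex and isoflurane, per the labels. URI is a prefoldin-like protein encoded by Uri1. The labels give liver as the tissue and epithelial as the cell type, do not say whether each library is a separate animal, and p-values thus measure only the spread between these libraries.

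Oxidative phosphorylation takes place in the inner mitochondrial membrane. Complexes I and II pass electrons from NADH and succinate to coenzyme Q, complex III passes them on to cytochrome c, and complex IV hands them to oxygen. Complexes I, III and IV pump protons, and complex V, the ATP synthase, lets them flow back to make ATP. Most subunits are encoded in the nucleus and imported, whereas a few core subunits of complexes I, III, IV and V are encoded by mitochondrial DNA. Assembly factors insert cofactors or hold intermediates and leave the finished enzyme. The hepatocyte is rich in mitochondria and depends on this pathway for biosynthesis and urea formation.

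Values are counts divided by a size factor of each library, called normalized reads here, from libraries primed at the 3′ ends of transcripts. Depth ranged from 3838674 to 4800694 recovered reads. Uri1 stood at 468, 374 and 310.0 normalized reads in controls 1 to 3 and 328, 398, 437, 354 and 401 in URI(+/D)Hep 1 to 5, and the means differed with log2 fold change 0.011, SE 0.15, limma adjusted p = 0.975 and a two-sided exact permutation p = 0.982. The 56 ways to split the libraries allow a p as small as 0.0179. The target gene thus did not separate the groups. Which part of Uri1 is deleted was not known here, so its 3′ reads do not check the labels, on which all directions rest. Xist, the transcript of the inactive X chromosome, was near the floor in controls 1 and 2 (9.59 and 2.95), while control 3 had 1298 and the URI(+/D)Hep libraries 1217 to 2357 normalized reads. The Y-linked gene Ddx3y stood at 1.77 in URI(+/D)Hep 1 and between 218 and 532 in the other 7 libraries, so that control 3 and URI(+/D)Hep 2 to 5 held reads of both. All 6 hepatocyte markers examined (Alb, Apoa1, Ttr, Serpina1a, Cps1, Hnf4a) were above 0 in every library, and summed to between 23228 and 26457 in controls and between 23770.3 and 25845 in URI(+/D)Hep. The sum hides Cps1, at 1077, 1802 and 1880 normalized reads in controls 1 to 3 and between 2709 and 3682 in URI(+/D)Hep. Its ranges did not overlap (log2 fold change 1.03, SE 0.20, limma adjusted p = 0.108). Those of Alb, Apoa1, Ttr, Serpina1a and Hnf4a overlapped. Markers of dividing cells (Mki67, Top2a, Ccnb1, Cdk1) summed to 182 in control 1 and 282 in URI(+/D)Hep 5, against 1185 to 2265 in the other 6 libraries. The 5 endothelial markers summed to between 1445 and 1892 in controls and between 2012 and 2272 in URI(+/D)Hep, so the groups did not overlap. Markers of Kupffer cells summed to 507 to 999 in controls and 819.9 to 1328 in URI(+/D)Hep, those of neutrophils and monocytes to 514 to 1024 in controls and 259.9 to 837 in URI(+/D)Hep, and those of stellate cells to 666 to 907 in controls and 751 to 1054 in URI(+/D)Hep. The part of these differences in the results below was not tested.

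No member passed the test between the genotypes. Of the 97 members, limma called 0 lower and 0 higher at an adjusted p under 0.05, where over all 13704 genes tested 0.0146% were called lower and 0.0% higher. The smallest adjusted p of a member was 0.112. At an unadjusted p under 0.05, 14 members were lower in URI(+/D)Hep and 1 was higher, against 9.33% and 8.35% of all genes. On recovered reads edgeR called 0 members, with 0.0219% of all genes called lower, and DESeq2 called 3 members lower and 0 higher of the 86 it adjusted, where it called 4.1% of genes lower and 2.57% higher. In the limma fit, 67 of 97 members had a log2 fold change below 0 and the median was -0.090. Over all genes, 50.2% were below 0 and 49.8% above, with the median at -0.0019. The 95% intervals of 50 members lay wholly between -0.5 and 0.5, and 92 members had a log2 fold change smaller than 0.5 in size. In bulk tissue, fewer cells of a type and less RNA per cell cannot be told apart.

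**Figure D1:**
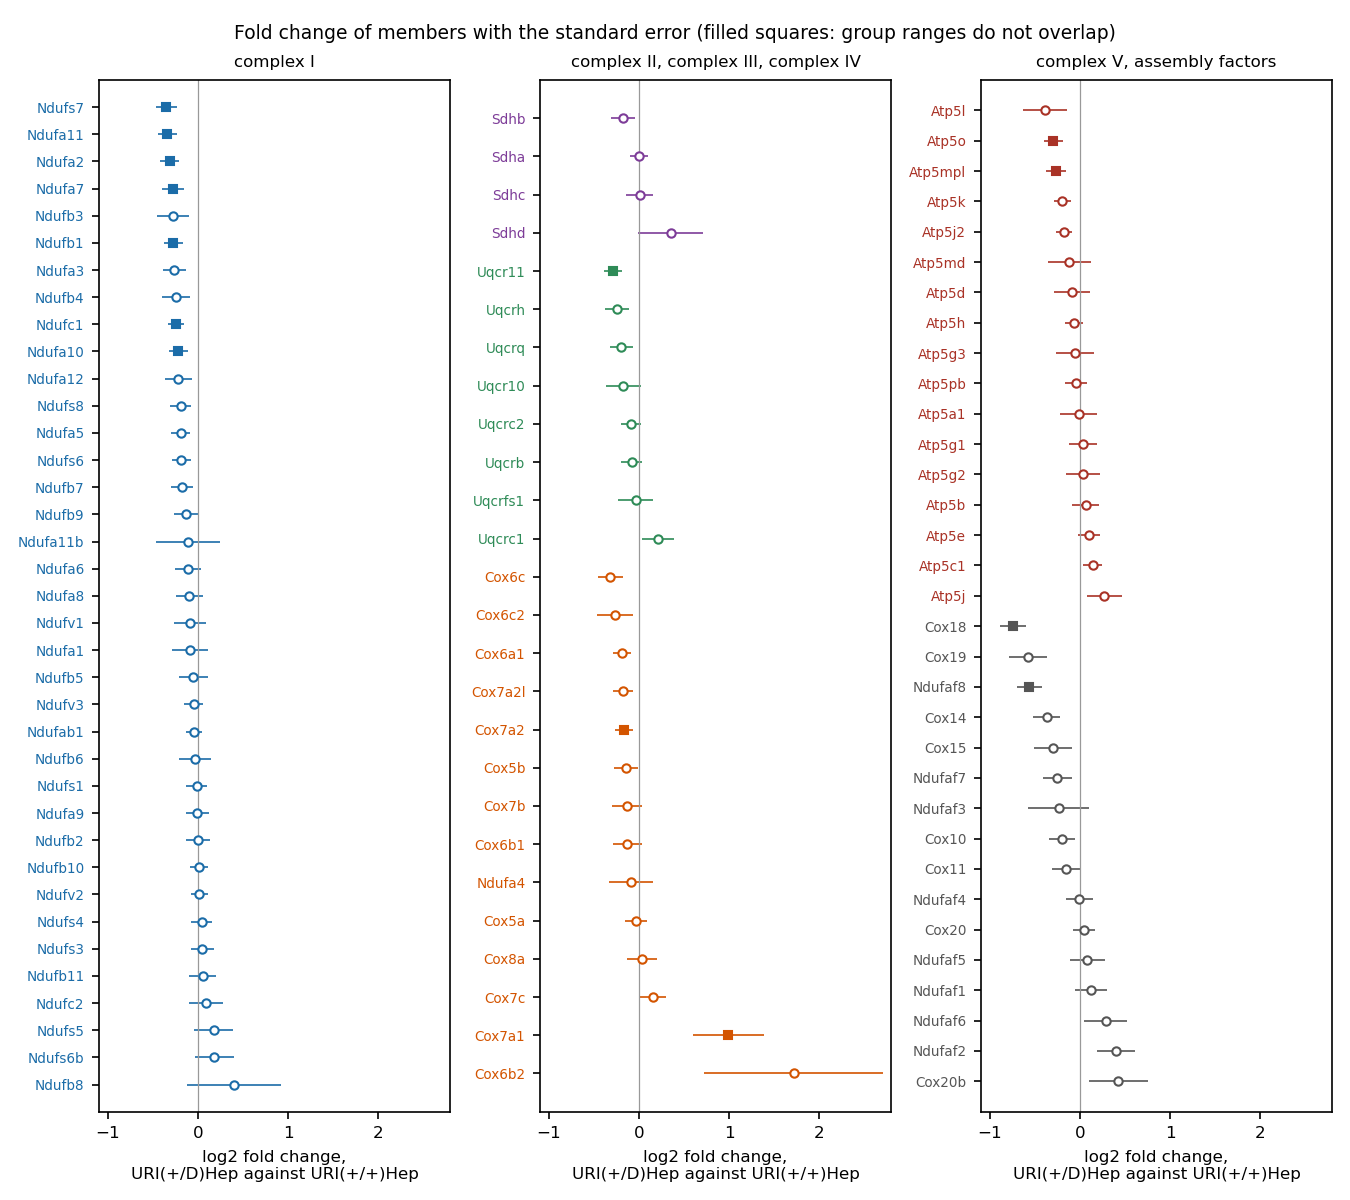
Log2 fold change of the members other than 1 of complex I that is not shown, URI(+/D)Hep against URI(+/+)Hep, with the standard error (horizontal axis, log2 scale; one row per gene, coloured by complex). Most points sit left of 0 but within 0.5 of it, and the 14 filled squares mark members whose group ranges do not overlap, 13 on the left and Cox7a1 on the right.

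The ranges of the groups separated for 14 members. In 13 of the 97 (13.4%) every URI(+/D)Hep library lay below every control, against 7.3% of all genes tested, and in 1 (1.03%) every such library lay above, against 6.13%. The 13 were Ndufa2, Ndufa7, Ndufa10, Ndufa11, Ndufb1, Ndufc1 and Ndufs7 of complex I, Uqcr11 of complex III, Cox7a2 of complex IV, Atp5o and Atp5mpl of complex V, and the assembly factors Cox18 and Ndufaf8. Their log2 fold changes ran from -0.74 to -0.17. Most members come from short messenger RNAs, and short transcripts as a whole leaned the same way. Among 90 members with a transcript length in the GENCODE vM21 annotation, the median was 694 nt, against 2229.5 nt over 12147 genes, and 64 were under 1000 nt. The 2030 other genes under 1000 nt stood at -0.096 in the median (log2 fold change), and 61.4% were below 0 and 12.2% lay wholly below the controls, close to the values of the members. The part of transcript length was not tested.

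Control 1 stood apart from the other controls for these genes. It was the highest of the 8 libraries for 60 of 97 members (61.9%), against 27.1% of all genes tested. The members together took 1.72%, 1.37% and 1.44% of all normalized reads in controls 1 to 3, and 1.45, 1.49, 1.39, 1.33 and 1.51% in URI(+/D)Hep 1 to 5. Controls 2 and 3 thus lay inside the range of the URI(+/D)Hep libraries and control 1 lay above it. On the log2 scale 27 members stood more than 0.5 higher in control 1 than in the mean of controls 2 and 3 (27.8%, against 18.8% of all genes), and 5 stood more than 0.5 lower. The former came from every complex, with 10 of 38 in complex I, 1 of 4 in complex II and 3 of 8 in complex III. In complexes IV and V they were 6 of 14 and 6 of 17. Of the 16 assembly factors it was 1 (6.25%), a smaller share than that of all genes. The members that stood lower in control 1 were Sdhd, Ndufaf2, Ndufaf6, Cox20b and Cox6b2. Control 1 was also the library with the lowest sum of dividing-cell markers and the highest Sox9. Of 2 brown fat markers listed, Ucp1 was not among the genes with values, and the 1 measured, Cidea, was also highest in control 1. Cidea stood at 162, 63.0 and 8.58 normalized reads in controls 1 to 3 and between 7.49 and 28.7 in URI(+/D)Hep. With 1 gene measured, the list does not show whether brown fat was present. The part of any of these in the values of the members was not tested.

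Over all members, the lean towards lower values rested on control 1 where controls 2 and 3 were both kept. Without control 1, the median log2 fold change of the members was 0.0074, with 48 of 97 negative, and 24 members went from a negative to a positive value while 5 went the other way. The assembly factors kept a median of -0.055. The 13 members that lay wholly below the controls must stay negative when a control is left out. Their median was -0.28 without control 1 against -0.29 in all 8 libraries, but Ndufa7 went from -0.28 to -0.13, Cox7a2 from -0.17 to -0.080, Ndufa10 from -0.22 to -0.14 and Atp5mpl from -0.27 to -0.13. With 2 controls left, 16 members (16.5%) lay wholly below and 10 (10.3%) wholly above them, against 11.5% and 10.5% of all genes. Without control 2, which stood lowest of the controls for the members as a whole, the median was -0.19 and 23 members lay wholly below and 1 wholly above, against 10.9% and 9.32% of all genes. Among the libraries that hold both Xist and Y-linked reads, which set control 3 against URI(+/D)Hep 2 to 5, the median was -0.059.

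**Figure D2:**
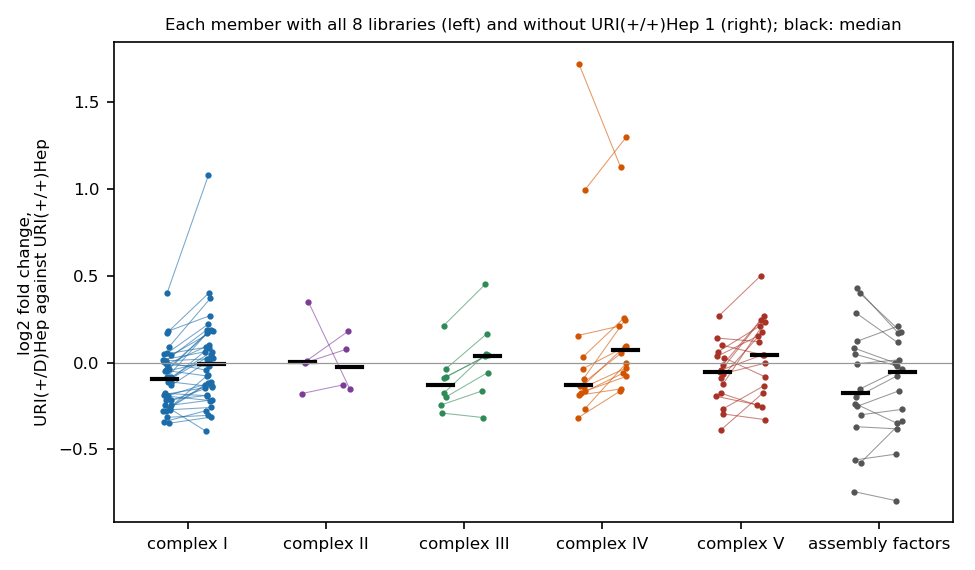
Log2 fold change of each member, URI(+/D)Hep against URI(+/+)Hep, with all 8 libraries (left point of each pair) and without control 1 (right point), by complex; black bars are medians. The medians of complexes I, III, IV and V and of the assembly factors moved up without control 1, those of complexes III, IV and V to above 0.

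Complex I, the NADH dehydrogenase, was the largest group. Of its members, 27 of 38 had a log2 fold change below 0 and the median was -0.093, and 7 lay wholly below the controls. Without control 1 the median was -0.0071. Ndufs7, the core subunit that carries the last iron-sulfur cluster before coenzyme Q, stood at 213, 195 and 202 normalized reads in controls 1 to 3 and 157, 164, 185, 139 and 155 in URI(+/D)Hep 1 to 5. Its log2 fold change was the lowest of complex I (log2 fold change -0.35, SE 0.12, limma adjusted p = 0.19). Of the 7 nuclear core subunits, which carry flavin or iron-sulfur clusters or line the coenzyme Q site, Ndufs7 was the 1 whose ranges separated. The median of the core subunits was -0.014, against -0.11 for the 31 accessory subunits, a split chosen after the values were seen. Ndufs1, the largest core subunit, had 505 ± 38.1 against 502 ± 56.3 normalized reads in controls against URI(+/D)Hep (mean ± SD, n = 3 and n = 5, as in the pairs of means given below). Ndufv1, which binds NADH and flavin, had 269 ± 51.7 against 253 ± 42.6, and its partner Ndufv2 had 427 ± 24.1 against 431 ± 22.8. Ndufs3, of the arm between the flavin and coenzyme Q, had a log2 fold change of 0.048, and Ndufs8, with a pair of iron-sulfur clusters, one of -0.19. All of these overlapped between the groups.

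Accessory subunits made up the other 6 separated genes of complex I. Ndufa11, of the membrane arm, stood at 735, 589 and 706 normalized reads in controls 1 to 3 and 569, 534, 536, 529 and 492 in URI(+/D)Hep 1 to 5. All 5 URI(+/D)Hep libraries lay below control 2, the lowest control (log2 fold change -0.34, SE 0.10, limma adjusted p = 0.156). Its level is uncertain, since reads may be shared with the near copy Ndufa11b. DESeq2 on recovered reads called it lower, with an adjusted p of 0.0477. Ndufa2, of the matrix arm, stood at 2153, 2155 and 2053 normalized reads in controls 1 to 3 and 1614, 1669, 1950.5, 1499.7 and 1819 in URI(+/D)Hep 1 to 5, where the controls lay close together and URI(+/D)Hep 3 came nearest to them. The difference did not pass the threshold (log2 fold change -0.32, SE 0.11, limma adjusted p = 0.186). Ndufc1, of the membrane arm, stood at 835, 797 and 769 normalized reads in controls 1 to 3 and 697, 663, 714, 621 and 679 in URI(+/D)Hep 1 to 5, a narrow gap between the groups (log2 fold change -0.25, SE 0.09, limma adjusted p = 0.203). Ndufa7, Ndufa10 and Ndufb1, which the naming rule did not pick, had log2 fold changes of -0.28, -0.22 and -0.27. Ndufb8, a membrane arm subunit, showed how far control 1 could stand off: 63.6, 16.7 and 12.9 normalized reads in controls 1 to 3 and 45.1, 25.9, 17.4, 39.3 and 42.5 in URI(+/D)Hep 1 to 5, with a log2 fold change of 0.40 in all libraries and 1.08 without control 1.

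The promoters of 2 members wholly below the controls and of the 1 member wholly above them are shown, to set their sequence beside the values. The 2 were picked because a motif searched for lay in the bases shown, whereas Cox7a1 was shown whatever its bases held. A motif in the 2 thus follows from the choice, and the windows draw no contrast between directions. The sequences are from RefSeq on GRCm38.p6, which is not the build named for these data, and give the 250 bases before the annotated start, 5′ to 3′ on the gene's strand. Capitals mark an exact match to a core motif: GCGCATGC of NRF1, a factor known to bind promoters of respiratory chain genes, which the Ndufa11 window holds on both strands in an overlapping pair, and CCGGAAGT of the ETS family, to which GABPA belongs, in Uqcr11. The motif starts 60 bases before the start in Ndufa11 and 66 bases before it in Uqcr11. The Cox7a1 window held no match to either or to AAGATGGC of YY1.
Ndufa11 promoter, chr17:56717512-56717761, strand +: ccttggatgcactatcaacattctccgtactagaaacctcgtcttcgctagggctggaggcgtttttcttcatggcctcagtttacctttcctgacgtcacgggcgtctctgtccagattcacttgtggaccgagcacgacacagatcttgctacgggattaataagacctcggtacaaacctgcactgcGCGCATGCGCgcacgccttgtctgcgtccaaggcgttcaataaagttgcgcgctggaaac
Uqcr11 promoter, chr10:80406822-80407071, strand -: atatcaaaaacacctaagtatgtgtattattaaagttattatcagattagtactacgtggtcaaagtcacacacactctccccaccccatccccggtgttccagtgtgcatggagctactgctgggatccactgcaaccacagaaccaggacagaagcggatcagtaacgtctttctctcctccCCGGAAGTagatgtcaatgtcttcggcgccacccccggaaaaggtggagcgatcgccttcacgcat
Cox7a1 promoter, chr7:30183921-30184170, strand +: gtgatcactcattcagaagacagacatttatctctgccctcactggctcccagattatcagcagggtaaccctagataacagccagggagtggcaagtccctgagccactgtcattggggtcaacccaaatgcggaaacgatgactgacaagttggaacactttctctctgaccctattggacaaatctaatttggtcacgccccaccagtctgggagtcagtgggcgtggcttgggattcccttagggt

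Windows of 80 members were in the promoter table, from 250 bases before to 50 after the start, and both strands were searched. The NRF1 motif occurred in 12 of them (15%), against 3.05% of 27025 genes in the table. Uqcr11 was among the 12, with a match that does not lie within the 250 bases shown above. The ETS motif occurred in 8 (10%, against 4.31%) and the YY1 motif in 13 (16.2%, against 3.19%). Of the 10 members in the table that lay wholly below the controls, 5 held at least 1 of the 3 motifs, as did 31 of all 80. The letters of the 3 motifs do not contain one another, and a match is no evidence of binding.

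Complex II, succinate dehydrogenase, also serves the tricarboxylic acid cycle and is encoded entirely in the nucleus. Over its 4 genes the median log2 fold change came to 0.0041, and no ranges separated. Sdha, the flavoprotein that oxidizes succinate, stood at 1079, 869 and 968 normalized reads in controls 1 to 3 and 1023, 979.6, 866, 975 and 1001 in URI(+/D)Hep 1 to 5. The group means were 972 ± 105 against 969 ± 60.5, and the 95% interval of the log2 fold change was -0.23 to 0.23. Sdhb, the iron-sulfur subunit, stood at 1004, 866 and 944 normalized reads in controls 1 to 3 and 779.6, 765, 939, 695 and 995 in URI(+/D)Hep 1 to 5, where URI(+/D)Hep 3 and 5 reached the controls. The difference did not pass (log2 fold change -0.18, SE 0.13, limma adjusted p = 0.519). Sdhc and Sdhd anchor the enzyme in the membrane. Sdhc stood at 1071, 691 and 819 normalized reads in controls 1 to 3 and 956, 915, 739, 799 and 868 in URI(+/D)Hep 1 to 5, and control 1 led (log2 fold change 0.0097, SE 0.15, limma adjusted p = 0.978). Sdhd stood at 71.96, 171 and 249 normalized reads in controls 1 to 3 and 236, 131, 209, 171 and 201 in URI(+/D)Hep 1 to 5: control 1 was the lowest library and control 3 the highest, opposite ends within 1 group. The direction of Sdhd turned with control 1 (log2 fold change 0.35, SE 0.36, limma adjusted p = 0.651 in all libraries, log2 fold change -0.15 without it).

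Complex III, the cytochrome bc1 complex, had 7 of 8 members below 0 on the log2 scale. Their median was -0.13, and 0.039 without control 1. Cyc1, which encodes cytochrome c1 of this complex, falls outside the symbol pattern and is not in these counts. Its log2 fold change was 0.069. Uqcr11, a small membrane subunit, stood at 384, 371 and 442 normalized reads in controls 1 to 3 and 348, 335, 332, 296 and 316 in URI(+/D)Hep 1 to 5. It was the 1 member of complex III whose ranges separated (log2 fold change -0.29, SE 0.10, limma adjusted p = 0.201), and without control 1 its log2 fold change was -0.32. Uqcrh, the hinge protein that meets cytochrome c1, stood at 2122, 1753 and 1825 normalized reads in controls 1 to 3 and 1507, 1619, 1863, 1321 and 1728 in URI(+/D)Hep 1 to 5, with URI(+/D)Hep 3 inside the range of the controls (log2 fold change -0.25, SE 0.13, limma adjusted p = 0.359). Uqcrq, another small subunit, had means of 1739 ± 307 against 1505 ± 129 normalized reads (log2 fold change -0.20, SE 0.13, limma adjusted p = 0.451). Uqcrfs1, the Rieske iron-sulfur protein, stood at 1731, 1016 and 1257 normalized reads in controls 1 to 3 and 1541, 1310.2, 949, 1329 and 1294 in URI(+/D)Hep 1 to 5, and its highest and lowest libraries were control 1 and URI(+/D)Hep 3 (log2 fold change -0.038, SE 0.20, limma adjusted p = 0.942). Uqcr10, Uqcrb and Uqcrc2 had log2 fold changes of -0.17, -0.083 and -0.090. Uqcrc1, a core protein on the matrix side, was the member with a positive value. It stood at 293, 172 and 185 normalized reads in controls 1 to 3 and 262, 249, 217, 224 and 272 in URI(+/D)Hep 1 to 5, so that every URI(+/D)Hep library lay between controls 2 and 3 on the low side and control 1 on the high side. The log2 fold change came to 0.21 in all libraries and 0.45 without control 1.

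**Figure D3:**
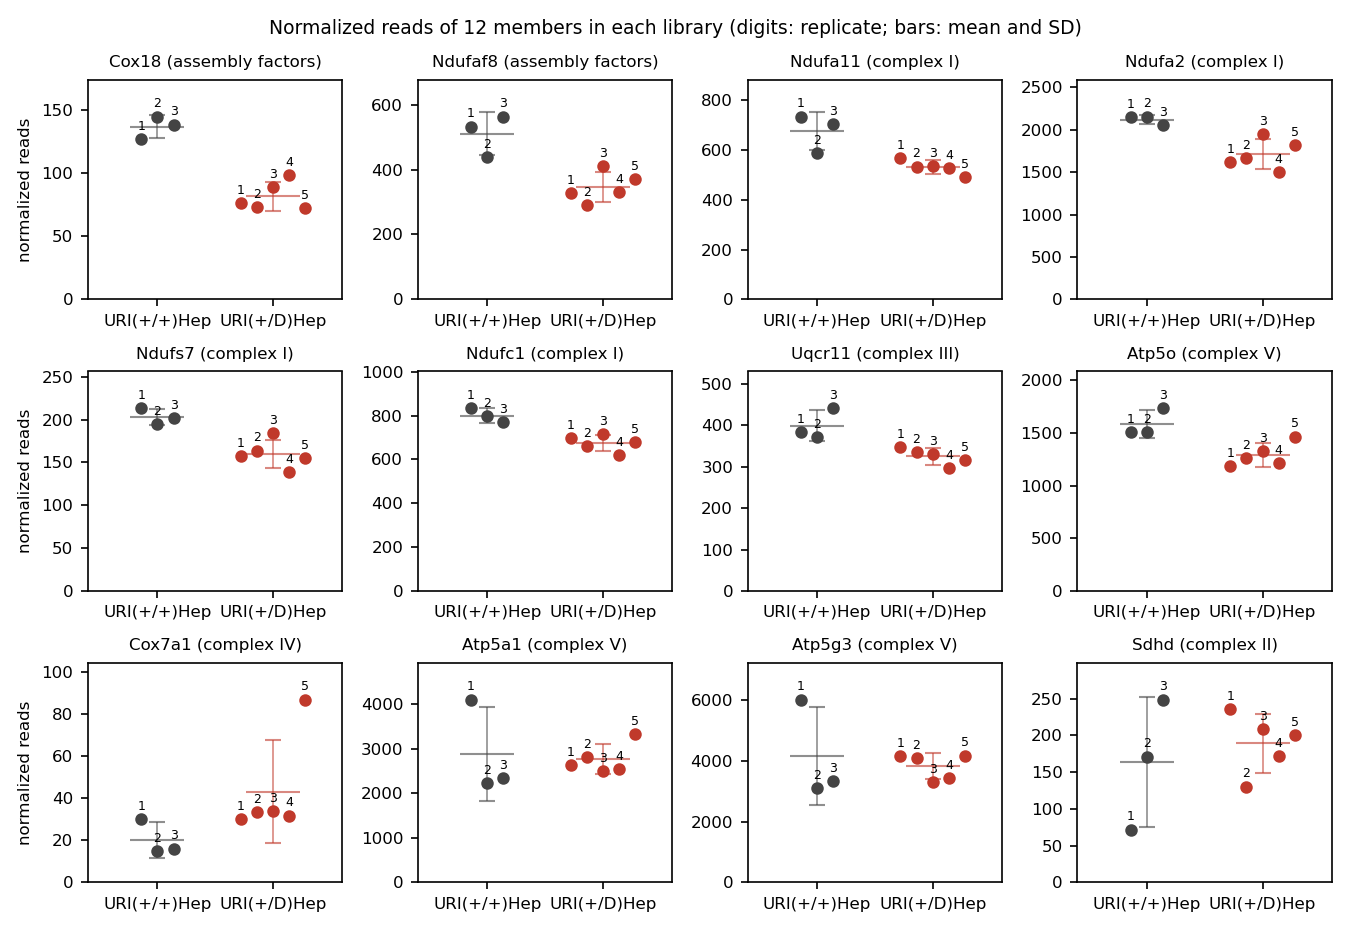
Normalized reads (vertical axes, linear and starting at 0) of 12 members in each library, with digits for the replicate and bars for the mean and SD of 3 controls and 5 URI(+/D)Hep libraries. The upper 8 panels show members wholly below the controls; in Cox7a1 a single library, URI(+/D)Hep 5, stands high, and in Atp5a1, Atp5g3 and Sdhd control 1 stands off from controls 2 and 3.

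Complex IV, cytochrome c oxidase, has several subunits with isoforms that differ between tissues. Of its members, 10 of 14 had a log2 fold change below 0 and the median was -0.13. Without control 1 the median was 0.072. Cox6b2, the testis isoform of subunit VIb, stood at 0, 0 and 10.7 normalized reads in controls 1 to 3 and 18.6, 7.41, 4.83, 11.2 and 0.989 in URI(+/D)Hep 1 to 5. These are 0, 0 and 10 reads in controls and 21, 8, 5, 12 and 1 in URI(+/D)Hep. With 0 reads in 2 controls no fold is drawn, and the fitted log2 fold change ran from 0.55 to 2.26 over the alternatives that kept the gene. Cox6c stood at 3349.6, 2506 and 2387 normalized reads in controls 1 to 3 and 1987, 2129.6, 2278, 2003 and 2547 in URI(+/D)Hep 1 to 5, where URI(+/D)Hep 5 exceeded controls 2 and 3 (log2 fold change -0.32, SE 0.14, limma adjusted p = 0.281). Cox6a1, the isoform of subunit VIa found in liver, had means of 623 ± 45.3 against 547 ± 43.3 normalized reads (log2 fold change -0.19, SE 0.10, limma adjusted p = 0.37). Ndufa4 stood at 769, 395 and 366 normalized reads in controls 1 to 3 and 552, 495, 358, 418 and 454 in URI(+/D)Hep 1 to 5, with control 1 at the top and controls 2 and 3 among the lower libraries (log2 fold change -0.093, SE 0.24, limma adjusted p = 0.876). Cox5a and Cox5b, the subunits Va and Vb, had means of 771 ± 129 against 748 ± 61.2 and 219 ± 34.99 against 197 ± 15.6 normalized reads, with overlapping ranges. Cox6b1, the isoform of subunit VIb in most tissues, stood at 1906, 1155 and 1229 normalized reads in controls 1 to 3 and 1289, 1278, 1244, 1176 and 1400.4 in URI(+/D)Hep 1 to 5, and Cox8a at 1025, 639 and 639 normalized reads in controls 1 to 3 and 828, 848, 675, 715 and 773 in URI(+/D)Hep 1 to 5. In both, control 1 exceeded the 7 other libraries, and the log2 fold changes were -0.13 and 0.032 with it, and 0.098 and 0.26 without it. Cox7b and Cox7c, further small subunits, had log2 fold changes of -0.13 and 0.16. Cox4i1 and Cox4i2, the isoforms of subunit IV, were not analysed here.

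The family of subunit VIIa held the 1 member wholly above the controls. Cox7a1, the isoform known from heart and skeletal muscle, stood at 29.98, 14.8 and 16.1 normalized reads in controls 1 to 3 and 30.1, 33.3, 33.8, 31.8 and 87.03 in URI(+/D)Hep 1 to 5. The lowest URI(+/D)Hep library had 30.1 and control 1 had 29.98, so the ranges separated by less than the value of 1 read. The difference did not pass the threshold (log2 fold change 0.99, SE 0.39, limma adjusted p = 0.239). Leaving out URI(+/D)Hep 5 gave a log2 fold change of 0.71. That library also held the bile duct markers Epcam at 525 and Krt19 at 65.3 normalized reads, against at most 29.96 and 5.91 in the other 7. Sox9, of the same list, stood at 1141, 631 and 121 normalized reads in controls 1 to 3 and 131, 134, 175, 108 and 152 in URI(+/D)Hep 1 to 5, highest in controls 1 and 2. Summed over its 4 genes, the list lay between 147 and 1185 in controls and between 129 and 765 in URI(+/D)Hep. Of 4 striated muscle markers, Myh7 was in the table, at most 2.97 normalized reads in any library. The part of bile duct cells in the Cox7a1 value was not tested. Cox7a2, the isoform of most tissues, stood at 1015, 849.7 and 849 normalized reads in controls 1 to 3 and 818, 845, 792, 757 and 808 in URI(+/D)Hep 1 to 5: the groups separated by the small gap from 845 to 849 (log2 fold change -0.17, SE 0.10, limma adjusted p = 0.398). Cox7a2l, a related protein of respiratory supercomplexes, had means of 592 ± 88.9 against 520.2 ± 32.9 and overlapping ranges.

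Complex V, the ATP synthase, had 11 of 17 members negative and a median log2 fold change of -0.055, which was 0.045 without control 1. Atp5o encodes the oligomycin sensitivity protein of the peripheral stalk. It stood at 1509.9, 1505 and 1736 normalized reads in controls 1 to 3 and 1185, 1263, 1329, 1210.2 and 1465 in URI(+/D)Hep 1 to 5, with URI(+/D)Hep 5 nearest to the controls (log2 fold change -0.30, SE 0.10, limma adjusted p = 0.201). Atp5mpl, a small proteolipid of the membrane part, stood at 1314, 979 and 1008 normalized reads in controls 1 to 3 and 947, 934, 897, 870.2 and 881 in URI(+/D)Hep 1 to 5 (log2 fold change -0.27, SE 0.11, limma adjusted p = 0.265). Without control 1 the log2 fold change of Atp5mpl was -0.13, while that of Atp5o was -0.33. Subunits e (Atp5k) and f (Atp5j2) of the membrane part had log2 fold changes of -0.19 and -0.18, with overlapping ranges. Atp5l, subunit g, had the lowest value of the complex but a wide spread: 206, 124 and 143 normalized reads in controls 1 to 3 and 83.97, 129, 153, 93.7 and 145 in URI(+/D)Hep 1 to 5 (log2 fold change -0.39, SE 0.25, limma adjusted p = 0.443). Control 3 lay inside the range of URI(+/D)Hep there. Atp5pb, Atp5h and Atp5j, the other parts of the peripheral stalk, had log2 fold changes of -0.043, -0.064 and 0.27.

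None of the catalytic and rotor subunits of complex V passed the test, and the ranges of the groups overlapped for each. Atp5a1, the alpha subunit of the catalytic head, stood at 4100.3, 2225 and 2333 normalized reads in controls 1 to 3 and 2638, 2807, 2489.8, 2538 and 3328 in URI(+/D)Hep 1 to 5. The 95% interval of its log2 fold change (-0.014) was -0.47 to 0.44, and control 1 stood 0.85 above the other controls on the log2 scale. Atp5b, the beta subunit that holds the catalytic sites, had means of 1332 ± 265 against 1381 ± 167 normalized reads, with a log2 fold change of 0.062. The central stalk subunits gamma (Atp5c1), delta (Atp5d) and epsilon (Atp5e) had log2 fold changes of 0.14, -0.089 and 0.099. Atp5c1 stood at 477, 479 and 518 normalized reads in controls 1 to 3 and 499, 554, 596, 484 and 583 in URI(+/D)Hep 1 to 5, where URI(+/D)Hep 2, 3 and 5 exceeded every control (log2 fold change 0.14, SE 0.10, limma adjusted p = 0.51). Subunit c, which forms the rotor ring, is encoded by Atp5g1, Atp5g2 and Atp5g3, genes whose products carry different import signals. Atp5g1 stood at 227, 262 and 312 normalized reads in controls 1 to 3 and 240.4, 263, 334, 232 and 292 in URI(+/D)Hep 1 to 5 (log2 fold change 0.028, SE 0.16, limma adjusted p = 0.944). Atp5g2 had means of 50.03 ± 7.59 against 51.5 ± 8.72 normalized reads (log2 fold change 0.035, SE 0.19, limma adjusted p = 0.944). Atp5g3 stood at 6023, 3099.6 and 3348 normalized reads in controls 1 to 3 and 4148, 4109, 3313, 3442 and 4179.6 in URI(+/D)Hep 1 to 5 (log2 fold change -0.055, SE 0.21, limma adjusted p = 0.918). The order of the controls thus differed within this family: control 1 was the lowest control for Atp5g1 and the highest for Atp5g3. Atpif1, the inhibitor of the ATP synthase, falls outside the symbol pattern and had means of 354 ± 46.6 against 407 ± 78.8 (log2 fold change 0.18, SE 0.18, limma adjusted p = 0.629).

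**Figure D4:**
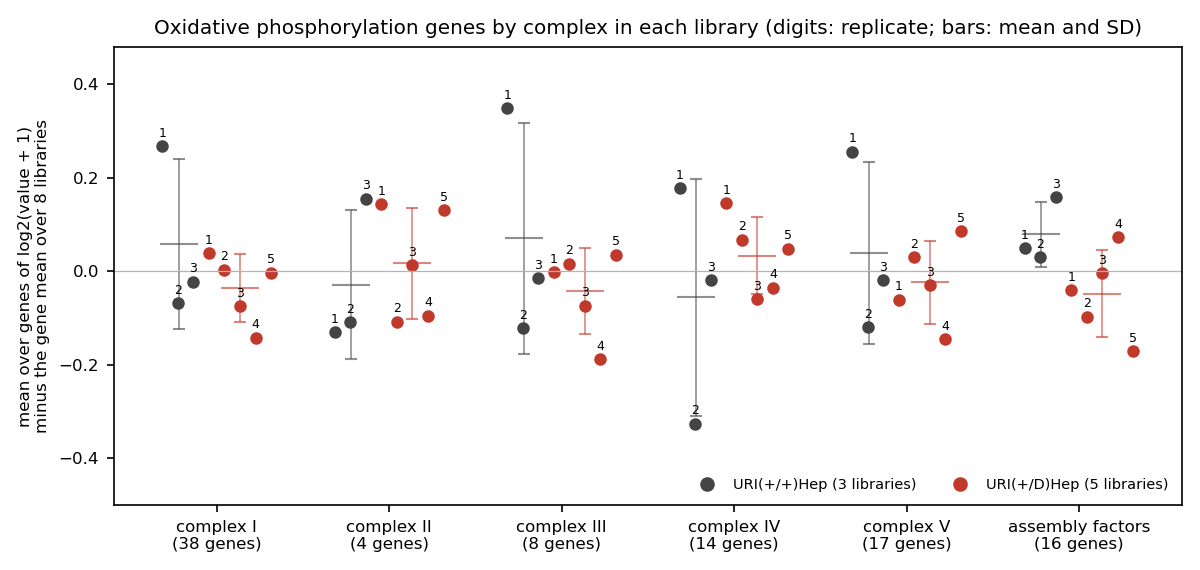
Mean over the genes of each complex of log2(value + 1) minus the gene's mean over the 8 libraries (vertical axis, log2 scale), per library with its replicate digit, and the mean and SD of each group. Control 1 is the highest point in complexes I, III, IV and V, whereas among the assembly factors control 3 is highest and URI(+/D)Hep 5 lowest. Complex IV includes Cox6b2, listed at 0 in controls 1 and 2, and its mean is lower in controls although its median log2 fold change is -0.13.

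The assembly factors held the members with the smallest p-values. Of them, 10 of 16 had a log2 fold change below 0 and the median was -0.18, and without control 1 the median was -0.055. Control 3 had the highest mean of this group: the deviation from each gene's average on the log2 scale was 0.049, 0.030 and 0.16 in controls 1 to 3 and -0.040, -0.097, -0.0043, 0.073 and -0.17 in URI(+/D)Hep 1 to 5. Cox18, the insertase that exports part of a mitochondrially encoded complex IV subunit across the inner membrane, stood at 127, 145 and 138 normalized reads in controls 1 to 3 and 76.02, 73.1, 88.9, 98.4 and 72.2 in URI(+/D)Hep 1 to 5. The lowest control exceeded the highest URI(+/D)Hep library clearly (log2 fold change -0.74, SE 0.15, limma adjusted p = 0.112). Ndufaf8, a partner of the complex I assembly factor Ndufaf5, stood at 532, 437 and 563 normalized reads in controls 1 to 3 and 328, 291, 412, 329.7 and 372 in URI(+/D)Hep 1 to 5 (log2 fold change -0.56, SE 0.14, limma adjusted p = 0.12). DESeq2 on recovered reads called both lower, with adjusted p-values of 0.00461 and 0.0183. Without control 1 their log2 fold changes were -0.80 and -0.53.

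Other factors of complex IV assembly overlapped between the groups. Cox19, a protein of the intermembrane space tied to copper supply, stood at 145, 90.6 and 85.8 normalized reads in controls 1 to 3 and 86.6, 75.9, 56.1, 68.4 and 64.3 in URI(+/D)Hep 1 to 5 (log2 fold change -0.58, SE 0.21, limma adjusted p = 0.218). Control 1 was its highest library, and the log2 fold change was -0.34 without it. Cox14, which acts early on the core subunit encoded by mitochondrial DNA, stood at 311, 282 and 362 normalized reads in controls 1 to 3 and 209, 207, 253, 274 and 289.8 in URI(+/D)Hep 1 to 5, where URI(+/D)Hep 5 passed control 2 (log2 fold change -0.37, SE 0.15, limma adjusted p = 0.248). Cox10 and Cox15, the enzymes that make heme A for complex IV, had log2 fold changes of -0.20 and -0.30, and Cox11, which helps to build its copper site, -0.15. Among the complex I factors, Ndufaf1 had 0.12, Ndufaf3 -0.24, Ndufaf4 -0.0064, Ndufaf5 0.083, Ndufaf6 0.29 and Ndufaf7 -0.25, all with overlapping ranges. Ndufaf2 stood at 119.9, 171 and 216 normalized reads in controls 1 to 3 and 254, 236, 234, 218 and 158 in URI(+/D)Hep 1 to 5 (log2 fold change 0.40, SE 0.21, limma adjusted p = 0.362). Control 1 was its lowest library, and URI(+/D)Hep 5 was the lowest of its group, the 2 libraries with the fewest reads of dividing cells. Ndufaf2 is not among the genes that the naming rule picks and was singled out after its values were seen. The members Cox20b, Cox6c2, Ndufs6b and Ndufa11b bear the names of near copies of other members, with which they may share reads, so their levels and those of Cox20, Cox6c, Ndufs6 and Ndufa11 are uncertain.

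Genes of the pathway outside the symbol pattern were not called in limma in either direction. Of 37 further assembly factors tested, 28 were below 0, and their median log2 fold change was -0.16. Lrpprc, which stabilizes mitochondrial messenger RNAs, stood at 2096, 1752 and 2053 normalized reads in controls 1 to 3 and 1442, 1308, 1641, 1524 and 1681 in URI(+/D)Hep 1 to 5, wholly below the controls (log2 fold change -0.37, SE 0.12, limma adjusted p = 0.159). Uqcc3, of complex III assembly, had means of 333 ± 38.7 against 268 ± 29.6 (log2 fold change -0.32, SE 0.13, limma adjusted p = 0.249) and also lay wholly below. In all, 2 of the 37 lay wholly below and 0 wholly above, against 7.3% and 6.13% of all genes tested. Among 4 electron carriers tested, Cycs, which encodes cytochrome c, had means of 172 ± 44.2 against 128 ± 27.3 (log2 fold change -0.42, SE 0.21, limma adjusted p = 0.34) and Etfa a log2 fold change of 0.14. Of 13 coenzyme Q genes, 7 were negative. Coq10b, a coenzyme Q binding protein, stood at 148, 99.4 and 101 normalized reads in controls 1 to 3 and 158, 181, 167, 155 and 173 in URI(+/D)Hep 1 to 5, wholly above the controls (log2 fold change 0.54, SE 0.15, limma adjusted p = 0.138), and Coq4 had a log2 fold change of -0.48. Of 13 genes of the tricarboxylic acid cycle, 6 were negative (median 0.061), with Suclg2 at 0.40 and Mdh2, malate dehydrogenase, at -0.34. Of 6 carriers of ADP, phosphate and the outer membrane pore, 4 were negative, with Slc25a3, the phosphate carrier, at -0.26 and Vdac2 at -0.17.

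Regulators of mitochondrial biogenesis leaned the other way. Of 12 tested, 9 were above 0 and the median log2 fold change was 0.22, and 0 were called by limma. Ppargc1b, a coactivator of respiratory genes, stood at 80.4, 107 and 86.9 normalized reads in controls 1 to 3 and 116, 167, 215, 141 and 284 in URI(+/D)Hep 1 to 5, wholly above the controls (log2 fold change 0.94, SE 0.27, limma adjusted p = 0.146), and DESeq2 called it higher with an adjusted p of 0.029. Pprc1, a related coactivator, stood at 189, 179 and 192 normalized reads in controls 1 to 3 and 145, 132, 152, 154 and 142 in URI(+/D)Hep 1 to 5, wholly below the controls (log2 fold change -0.37, SE 0.10, limma adjusted p = 0.145). The coactivators thus lay on opposite sides of the controls. Among 7 mitochondrially encoded messenger RNAs, the partners of the nuclear subunits, the median was 0.033. Of these, mt-Nd6 stood at 138, 159.5 and 186 normalized reads in controls 1 to 3 and 262, 394, 444, 225 and 399 in URI(+/D)Hep 1 to 5 (log2 fold change 1.05, SE 0.24, limma adjusted p = 0.115) and mt-Nd2 at 8692 ± 1115 against 12999 ± 1851 (log2 fold change 0.58, SE 0.16, limma adjusted p = 0.135), both wholly above the controls. DESeq2 called mt-Nd6 and mt-Nd2 higher, with adjusted p-values of 0.00312 and 0.0118. Gene counts do not show the strand or priming site of the reads given to mt-Nd6, so its level is uncertain. Another 2 of the 7 lay wholly below the controls: mt-Nd4 had means of 24454 ± 1916 against 19000.3 ± 1794 (log2 fold change -0.37, SE 0.13, limma adjusted p = 0.208) and mt-Nd1 of 10573 ± 1681 against 8933 ± 319 (log2 fold change -0.23, SE 0.12, limma adjusted p = 0.361), and both were named after their values were seen. Of the 12 regulators, 2 lay wholly above the controls and 1 wholly below. Over all genes tested, 6.13% lay wholly above and 7.3% wholly below.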

How the data were processed

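Polyadenylated RNA of whole liver was sequenced from the 3′ end in 3 URI(+/+)Hep and 5 URI(+/D)Hep libraries with molecular identifiers, per the labels' protocols. The values the authors deposited are normalized signal, that is gene counts over a size factor of the library. GRCm39, featureCounts, bcl2fastq and DESeq2 are named in the submitters' processing notes. Aligner, annotation and use of the identifiers are not given in the sources available, so a value may count reads or molecules. In every library, 100% of values were whole multiples, within 1e-06, of the lowest one above 0. In URI(+/D)Hep 5 that value is close to 1, which leaves its reads less certain.

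The 13704 genes that reached 10 in 3 or more libraries were fitted on the log2(value + 1) scale by limma 3.58.1 (R 4.3.3), with the mean-variance trend and Benjamini-Hochberg adjustment over all genes. Fold changes are on that scale, which understates changes of low genes. The fit was tested on simulated data. Counts were also tested with edgeR 4.0.16 and DESeq2 1.42.0 on recovered reads. The members and lists were chosen with earlier results of these data known. Named were all genes of complex II, the 4 members of smallest p in each other complex and in the assembly factors, isoform families by role, and the 2 genes of smallest p in each other list. Other members were named after their values were seen, to describe the subunits by role. The values of 1 member of complex I are not reported here by name; it stays in all counts and medians. The NRF1 core searched was shortened after the shares of a longer form had been seen. Symbols were matched through RefSeq synonyms where names had changed.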

Additional observations from a re-analysis of the deposited data

Results flagged for a closer look

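Of 51 values examined in the 5 URI(+/D)Hep libraries (named genes and the mean of each complex), 2 held a library far from the other 4, where chance flags about 1 in 20. For Cox7a1, URI(+/D)Hep 5 stood at 87.0 normalized reads against 30.1 to 33.8 in the other 4. For Sdha, URI(+/D)Hep 3 stood at 866 against 975 to 1023.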

How the results depend on the processing

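Leaving out each library in turn, limma called 0 members in all 8 fits, and the median log2 fold change ranged over -0.19 to 0.0074 for all members, -0.21 to -0.0071 for complex I, -0.25 to 0.039 for complex III, -0.22 to 0.072 for complex IV and -0.21 to -0.055 for the assembly factors. The medians of complexes II and V also turned sign, over -0.11 to 0.050 and -0.13 to 0.045. Members wholly below the controls numbered 14 to 23 and members wholly above 1 to 10, against 7.75% to 13.2% and 6.81% to 11.9% of all genes, since fewer libraries separate more easily. The log2 fold change of Uri1 ranged over -0.13 to 0.16, and others with a turn of sign over -0.079 to 0.077 for Sdha, -0.14 to 0.18 for Sdhc, -0.15 to 0.74 for Sdhd, -0.083 to 0.15 for Atp5g1, -0.047 to 0.15 for Atp5g2, -0.23 to 0.25 for Atp5g3, -0.29 to 0.24 for Ndufa4, -0.33 to 0.043 for Vdac2 and -0.025 to 0.23 for Etfa. Without both control 1 and URI(+/D)Hep 5 the median of complex IV was 0.038, 19 members lay wholly below and 13 wholly above the controls (13.8% and 13% of all genes), and the values were 0.064 for Sdha, -0.18 for Sdhd, -0.11 for Atp5g1, 0.21 for Atp5g3 and 0.24 for Ndufa4. Against control 3 alone, with URI(+/D)Hep 2 to 5 and the control assumed to vary like the other group, the median of the assembly factors was -0.068, 31 members lay wholly below and 15 wholly above (28.8% and 25.9% of all genes), and the values were -0.51 for Sdhd, -0.077 for Atpif1, -0.17 for Atp5g1, 0.16 for Atp5g3, 0.23 for Ndufa4, -0.00031 for Etfa and 0.16 for Vdac2. Members wholly above numbered 0 with a mean of at least 50 and 0 with quantile normalization. Values close to 0 turned sign with TMM scaling (-0.0054 for Uri1 and -0.0071 for Sdhc), quantile normalization (0.037 for Sdha and 0.050 for Atp5g3), edgeR (-0.0035 for Uri1 and -0.0091 for Sdhc), edgeR without URI(+/D)Hep 5, chosen after seeing the data (-0.020 for Uri1, -0.015 for Sdhc and -0.052 for Atp5g2) and DESeq2 (0.0016 for Sdha and -0.00080 for Sdhc). DESeq2 called 3 members lower, Cox18, Ndufa11 and Ndufaf8, and left 11 members without an adjusted p. The other genes picked by the naming rule kept their direction, and pseudocounts of 0.5 and 8, no filter and limma without the trend turned none of the genes it picked. Members named for other reasons are not covered by this. Of these, Atp5a1 had -0.014 in all libraries and 0.27 without control 1. Adding a replicate block gave a median of all members of -0.074 and 0 were called, and Atp5g2 had -0.054. The block takes URI(+/D)Hep 4 and 5, whose numbers no control shares, out of the difference. Libraries of the same number did not deviate together (correlations of -0.40, -0.043 and -0.27 across genes for numbers 1 to 3), so the number alone does not pair them. Depth leaves Cox6b2, with 0 reads in controls 1 and 2, without a usable fold.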
